A study of Mus musculus with 14 samples.

Results

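The fibroblast growth factor (FGF) ligands and receptors followed here were 9 genes, namely the ligands Fgf1, Fgf2, Fgf9, Fgf10, Fgf18 and Fgf22 and the receptors Fgfr1, Fgfr2 and Fgfr3. They were found by symbol among 24421 genes of a table of RNA-seq read counts, and were selected on the measured genotype difference of Fgf10 in these mice, with the other ligands and receptors set beside it. Their genotype differences are therefore given as a description with no p, and how many passed the threshold is given once, beside the share over all genes. A further 81 genes of the pathway were measured beside them (other ligands, homologous factors, receptors and coreceptors, carriers, signal relay, and feedback genes). The samples were labelled as hippocampus, and the study's text names the hippocampus in one place and the dentate gyrus in another, so the dissected region is uncertain. They came from 14 naive male mice of the strain 129.C57Bl6, 7 labelled wild type (WT) and 7 labelled LPAR2-/-, with 1 library per mouse. LPAR2 is a receptor for the signaling lipid lysophosphatidic acid, and the mutants lack part of exon 2 of its gene on both alleles. They were kept as a homozygous colony beside a control colony of mixed C57BL/6 and 129/SvJ background, so genotype and colony cannot be told apart. Every mouse is labelled as 10 to 12 weeks old, but the description of the series speaks of older mice, so the age is uncertain.

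FGF ligands are secreted and bind tyrosine kinase receptors together with heparan sulfate on the cell surface. The receptors pass the signal through the adaptor Frs2 and the Ras and ERK kinases. The signal induces its own inhibitors, among them the Sprouty, Spred and Dusp6 proteins, and it also induces the Etv transcription factors. Fgf10 binds mainly the b isoform of Fgfr2, Fgf9 and Fgf18 bind mainly Fgfr3 and the c isoforms, and Fgf1 binds all the receptors. In the hippocampus, Fgf22 is known as an organizer of excitatory synapses onto CA3 neurons, and Fgf9 as a largely neuronal ligand of glial receptors.

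The libraries held 15434620 to 23258949 reads assigned to genes. No 2 libraries of a genotype agreed within sampling noise. Lpar2 itself (chr8:69822565-69831102, mm10) was 2.36 ± 0.676 CPM (counts scaled to library size, mean ± SD, n = 7) in WT mice and 9.55 ± 1.41 CPM in the mice labelled LPAR2-/-. No mouse of the WT group reached the lowest mutant. The count runs over all exons of Lpar2, including those outside the deleted piece, so it does not check the deletion, and its direction is opposite to a loss of transcript. Genotypes below are those of the labels. Of 113 marker genes of 18 cell types and regions, 103 were tested, of which 4 were higher (Lum, Tdo2, Rgs14 and Rasgrf2) and 1 was lower (Gpr17) in the mice labelled LPAR2-/-, which is 4.85% beside 6.77% of all genes tested. The markers of dentate granule cells summed to 612 to 1006 CPM per mouse, those of CA1 to 83.8 to 331 CPM and those of CA3 to 81.7 to 183 CPM.

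Fgf10 was the member with the greatest difference. In WT mice it ranged from 15.5 CPM through a median of 16.8 to 20.1 CPM. In the mice labelled LPAR2-/- it ranged from 35.4 CPM through a median of 42.9 to 68.9 CPM. Every mouse labelled LPAR2-/- lay above every WT mouse, and mutant mice 2 and 3, at 68.0 and 68.9 CPM, stood apart from the other 5, which lay between 35.4 and 45.2 CPM. The group means were 17.3 ± 1.79 and 48.1 ± 14.3 CPM (SD, n = 7 each). The fitted log2 fold change was 1.47 with a standard error (SE) of 0.159, a 2.78-fold higher level, and 32 of the 14897 genes tested had a larger one. Without mutant mice 2 and 3 the log2 fold change was 1.20. These counts rest on 250 to 425 reads per WT mouse and on 683 to 1591 reads per mouse labelled LPAR2-/-. Fgf10 lies on the plus strand at chr13:118714699-118792573 in mm10 and has 3 exons there.

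Mutant mice 2 and 3 also stood apart in markers of other cells. The 8 choroid plexus markers summed to 264 CPM in mutant mouse 2, against 4.44 to 9.96 CPM in WT mice and 5.33 to 24.1 CPM in the other mice labelled LPAR2-/-. The 8 oligodendrocyte markers summed to 4015 CPM in mutant mouse 3, against 1234 to 2095 CPM in WT mice and 998 to 2018 CPM in the other mutants. Markers of meningeal fibroblasts and mural cells lay the other way in these mice. The 11 meningeal markers had a median sum of 166 CPM in WT mice (100.1 to 380) and of 304 CPM in the mice labelled LPAR2-/- (119 to 510). Mutant mice 2 and 3 were the lowest mutants, at 195 and 119 CPM, and mutant mice 4 and 5, with the least Fgf10, were the highest, at 454 and 510 CPM. The 8 mural markers had a median sum of 179 CPM in WT mice (126 to 310) and of 262 CPM in the mutants (172 to 362), with mice 2 and 3 again lowest (179 and 172 CPM) and mice 4 and 5 highest (352 and 362 CPM). Neuron and CA3 markers, by contrast, were highest in the mice of each genotype with the most Fgf10. The 6 neuron markers summed to 6638 and 6729 CPM in mutant mice 2 and 3 (5294 to 6315 CPM in the other mutants) and to 6840 and 6742 CPM in WT mice 1 and 7, the WT mice with the most Fgf10 (5488 to 5922 CPM in the other WT mice). The 3 CA3 markers in the table summed to 148 and 183 CPM in mutant mice 2 and 3 (81.7 to 134 CPM in the other mutants) and to 166 and 178 CPM in WT mice 1 and 7 (97.8 to 123 CPM in the other WT mice). Mutant mice 6 and 7, next in Fgf10 (42.9 and 45.2 CPM), went the other way. They had the lowest mutant sums of neuron (5302 and 5294 CPM) and CA3 markers (87.7 and 81.7 CPM), below mice 4 and 5. No marker in the table from these 6 lists was at 0 in every mouse. Their part in the level of Fgf10 was not tested. In bulk tissue, more cells of a type and more RNA per cell cannot be told apart.

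The sequences just before the start sites of Fgf10 and Fgf9 are shown because these are the ligands that parted by genotype, in opposite directions. Both are the 250 bases upstream of the annotated start (RefSeq, GRCm38.p6, plus strand), written 5′ to 3′ in lower case, with a cAMP response element half-site (TGACG, either strand) in capitals.
Fgf10, chr13:118714449-118714698: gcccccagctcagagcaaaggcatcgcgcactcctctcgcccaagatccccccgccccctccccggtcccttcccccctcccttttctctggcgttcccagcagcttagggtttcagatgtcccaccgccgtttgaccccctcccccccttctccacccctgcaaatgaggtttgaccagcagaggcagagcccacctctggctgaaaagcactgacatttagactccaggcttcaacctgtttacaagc
Fgf9, chr14:58072436-58072685: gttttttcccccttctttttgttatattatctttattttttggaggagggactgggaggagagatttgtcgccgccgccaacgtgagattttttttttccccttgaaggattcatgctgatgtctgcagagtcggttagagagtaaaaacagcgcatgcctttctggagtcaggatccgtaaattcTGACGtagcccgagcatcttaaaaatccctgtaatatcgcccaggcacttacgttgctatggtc
The half-site was found once in the Fgf9 window, at 2 places in that of Fgf2, and in 17.8% of 32851 such windows of the genome. It was added to the search after the other results were known. The windows of Fgf10, Fgf18, Fgf22, Fgfr2 and Fgfr3 held no match to it. No member's window matched, on either strand, the full cAMP response element (TGACGTCA, in 1.55% of all windows), the AP-1 site (TGANTCA, 6.75%), the E-box (CACGTG, 6.02%), an ETS site (CCGGAAG, 6.91%) or the TATA box (TATAAA, 12.4%). Windows were found for 7 of the 9 members. In GENCODE M21 the gene models of Fgf10 and Fgf9 begin further upstream, at chr13:118669791 and chr14:58070547. Both windows shown thus lie inside those models, and the sequences before the GENCODE starts were not searched. The Fgf10 window had a GC content of 61.2% and the Fgf9 window 44.8%, around a median of 52.4% over all windows.

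Fgf9 moved the other way. It ranged from 15.1 CPM through a median of 17.4 to 18.4 CPM in WT mice, and from 11.1 through 13.4 to 14.4 CPM in the mice labelled LPAR2-/-. All 7 mutants were below the lowest WT mouse. The means were 16.9 ± 1.17 and 13.1 ± 1.12 CPM (SD, n = 7 each), a log2 fold change of -0.37 (SE 0.0642). The gene lies at chr14:58072686-58112720 on the plus strand.

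The remaining ligands overlapped between the genotypes. Fgf1 was the ligand with the highest mean level per length in both genotypes, but in the mutants its range overlapped with that of Fgf10. Fgf1 ranged from 47.3 through 55.8 to 64.0 CPM in WT mice and from 42.3 through 50.6 to 59.4 CPM in the mice labelled LPAR2-/-, a log2 fold change of -0.08 (SE 0.0778). Fgf18, which belongs to the subfamily of Fgf8 and Fgf17, ranged from 1.27 through 1.40 to 1.61 CPM and from 1.17 through 1.49 to 2.03 CPM, a log2 fold change of 0.12 (SE 0.134). These values stand on 23 to 38 reads per mouse, fewer than for the other members tested.

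Fgf22 and Fgf2 had too few reads for edgeR's filter and were not tested in edgeR. Fgf22 had 3 to 6 reads in each WT mouse and 4 to 9 in each mouse labelled LPAR2-/-. Its level was 0.207 ± 0.0687 CPM in WT mice and 0.355 ± 0.0710 CPM in the mutants (SD, n = 7 each). The groups overlapped through WT mouse 7 at 0.350 CPM, and the other 6 WT mice were below all 7 mutants. Fgf2 had 0 to 3 reads per WT mouse and 0 to 5 per mouse labelled LPAR2-/-, and no difference was detectable at this depth, where a count of 0 allows up to 3 reads (0.129 to 0.192 CPM in these libraries). The gene models counted by the authors held 489 of 2247 annotated exonic bases of Fgf22 and 695 of 6782 of Fgf2 (GENCODE M21), so both levels are of a part of the transcript.

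Among the receptors, Fgfr1 was lower in the mice labelled LPAR2-/-. It ranged from 147 through 163 to 172 CPM in WT mice and from 124 through 143 to 146 CPM in the mutants. The groups did not overlap, but the lowest WT mouse and the highest mutant lay close together. The means were 162 ± 9.22 and 137 ± 9.70 CPM (SD, n = 7 each), a log2 fold change of -0.24 (SE 0.0487). Fgfr1 (chr8:25518759-25575718, plus strand) shares its chromosome with Lpar2, at a distance of 44.3 Mb. Markers of oligodendrocyte precursors also lay lower, with a median sum of 228 CPM in WT mice and 195 CPM in the mutants. Mutant mice 6 and 7, with the least Fgfr1, had the lowest mutant precursor sums (170 and 183 CPM). Their neuron (5302 and 5294 CPM) and CA3 sums (87.7 and 81.7 CPM) were also the lowest of the mutants. WT mouse 1, by contrast, had the lowest WT precursor sum (203 CPM) at 170 CPM of Fgfr1. The part of these cells was not tested.

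Fgfr2, whose b isoform is the main receptor for Fgf10, overlapped. It ranged from 30.5 through 36.5 to 43.5 CPM in WT mice and from 29.9 through 34.5 to 45.1 CPM in the mice labelled LPAR2-/-, a log2 fold change of -0.05 (SE 0.103). The table counts whole genes, so the b and c isoforms were not told apart. Fgfr3, in the brain mostly a receptor of astrocytes, ranged from 102 through 107 to 130 CPM and from 95.1 through 106 to 131 CPM, a log2 fold change of 0.04 (SE 0.0811).

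**Figure D1:**
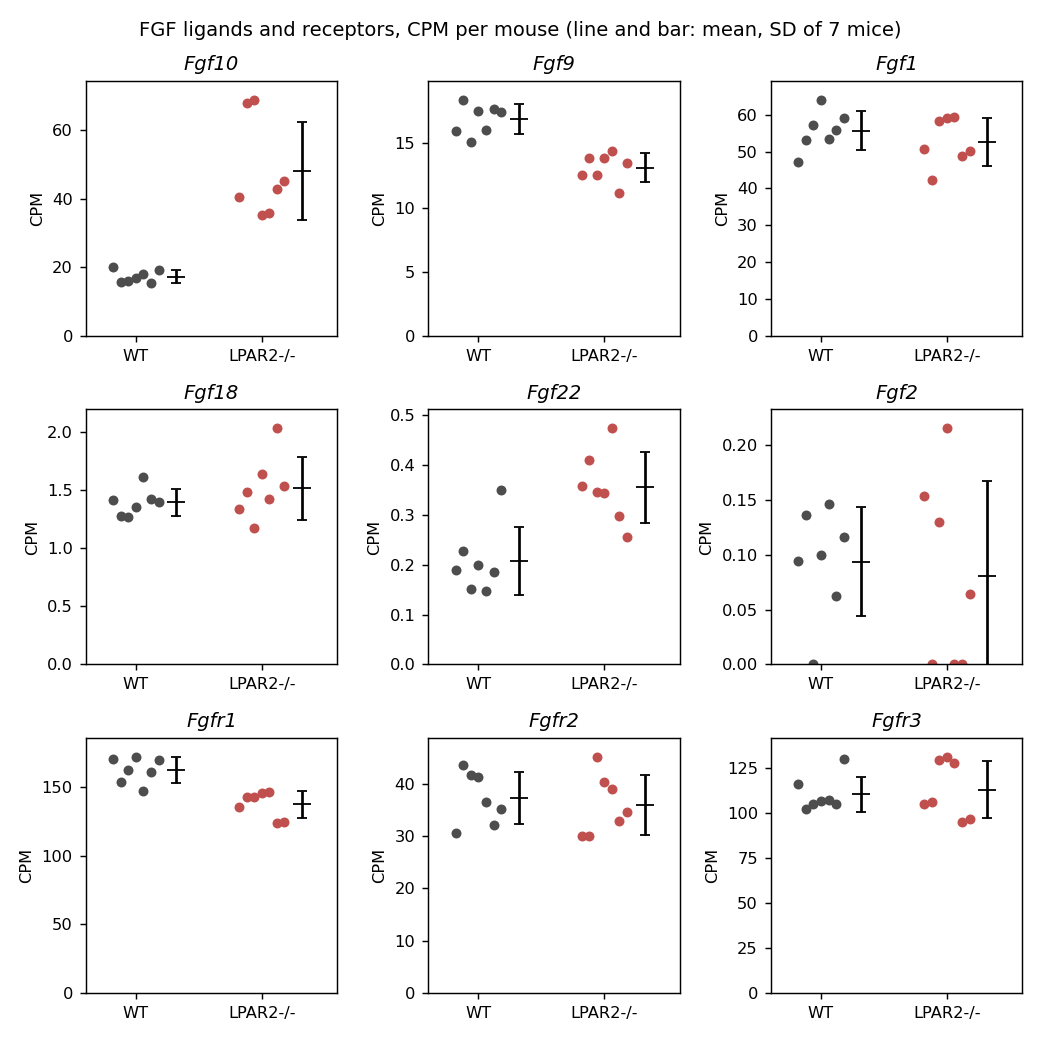
CPM (reads scaled to library size) of the 9 FGF ligands and receptors (vertical axes from 0, a scale for each gene) in 7 WT mice (grey) and 7 mice labelled LPAR2-/- (red), 1 point per mouse, with the mean and SD of each group as a line and bar; the lower bar of Fgf2 in the mutants ends at the axis. Fgf10 separates upward, with mutant mice 2 and 3 near 68 CPM, while Fgf9 and Fgfr1 separate downward and the other genes overlap.

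Of the 9 members 7 were tested in edgeR, and all of these had at least 10 reads in every mouse. In the edgeR fit, 1 was past an adjusted p of 0.05 and higher (Fgf10), where 3.32% of all genes tested were called higher, and 2 were lower (Fgf9 and Fgfr1), where 3.46% were called lower. These 3 were also those whose groups did not overlap, which held for 1.77% of all genes tested (0.866% with the mutants higher and 0.906% with them lower). Fgf22, left out by edgeR's filter, was called in both limma fits, with 3 to 9 reads per mouse and a higher mean in the mutants. In all, 6.77% of genes were called (494 higher and 515 lower, and 616 and 377 with upper-quartile scaling in place of TMM). Nothing is read from these shares, since the comparison had been used to pick the genes.

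Levels between genes were compared as CPM per kilobase of the counted length. In WT mice the order was Fgfr1 (32.3 ± 1.84 CPM per kilobase, SD, n = 7), Fgfr3 (25.1 ± 2.23), Fgf1 (14.2 ± 1.35), Fgfr2 (6.97 ± 0.939), Fgf9 (4.08 ± 0.282), Fgf10 (3.79 ± 0.391), Fgf18 (0.879 ± 0.0734), Fgf22 (0.424 ± 0.140) and Fgf2 (0.135 ± 0.0719). The ranges of Fgfr1 and Fgfr3 and those of Fgf9 and Fgf10 overlapped, so these neighbours are not in a firm order. In the mice labelled LPAR2-/-, Fgf10 stood at 10.5 ± 3.13 CPM per kilobase, between Fgf1 (13.5 ± 1.66) and Fgfr2 (6.73 ± 1.07), and its range overlapped with both. Fgf9 (3.16 ± 0.271) was below all mutant values of Fgf10. The remaining order was as in WT mice, with an overlap between Fgf18 and Fgf22. Fgf10 also varied more among the mice labelled LPAR2-/- (coefficient of variation 29.7%) than among WT mice (10.3%), and mice 2 and 3 carry that spread.

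Whether other members vary with Fgf10 was asked within each genotype, where the difference between genotypes plays no part. Over 16 relations (8 genes, 7 mice of each genotype), Pearson's r of log2 CPM ran from -0.57 to 0.80. By the exact two-sided permutation test over all 5040 pairings, whose smallest p is 0.000198, 0 of 16 were past an adjusted p of 0.05 (Benjamini-Hochberg over 16) and 1 had an unadjusted p under it. This was Fgfr3 in WT mice, with r = 0.80 (exact permutation p = 0.0183, adjusted 0.292, n = 7) and Spearman's rho = 0.93 (exact permutation p = 0.00675, adjusted 0.108). Without WT mice 1 and 7, farthest from the median of Fgf10, r was 0.81 over 5 mice. In the mice labelled LPAR2-/- the same pair had r = -0.07 (exact permutation p = 0.850, n = 7), and the difference between the genotypes was not tested.

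The other WT values of r with Fgf10 were 0.45 for Fgf18, 0.36 for Fgfr1, 0.34 for Fgf2, 0.29 for Fgf22, -0.34 for Fgf9, -0.37 for Fgf1 and -0.57 for Fgfr2. In the mice labelled LPAR2-/-, Fgf10 fell into the 5 mice at 35.4 to 45.2 CPM and the pair of mice 2 and 3. Over all 7 mutants, r was 0.09 for Fgfr1, 0.00242 for Fgfr2, -0.01 for Fgf22, -0.11 for Fgf9, -0.15 for Fgf2, -0.41 for Fgf18 and -0.43 for Fgf1. Over the 5 without mice 2 and 3, the values were -0.97 for Fgfr1, -0.97 for Fgfr3, -0.93 for Fgf1, -0.81 for Fgf22, -0.70 for Fgfr2, -0.59 for Fgf9, -0.25 for Fgf2 and 0.28 for Fgf18. The pooled values thus rest on those 2 mice, and no test was run over the other 5, which were set apart after seeing Fgf10. In the 5 mice, those with the most Fgfr1 and Fgfr3 reads (4 and 5, at 146 and 146 CPM of Fgfr1) had the least Fgf10 (35.4 and 35.9 CPM).

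The genes most like Fgf10 in both genotypes were none of the members. Ranked by the lower of the WT and mutant r among 14896 genes, the first 5 were Ociad1 (r = 0.93 in WT mice and 0.93 in mutants), Tusc2 (0.88 and 0.90), Stau2 (0.91 and 0.88), Fbxo45 (0.86 and 0.95) and Atp6v1e1 (0.90 and 0.84), over 7 mice of each genotype. These are a description with no p, since the libraries share depth and composition and the genes were picked as the highest of many. Spearman's rho was lower for some, at 0.64 for Tusc2 in WT mice and for Stau2 in mutants. In all 5 genes mutant mice 2 and 3 were the highest mutants, as in Fgf10, and r without them was not computed. None of the 5 was past the threshold between genotypes (edgeR, adjusted p between 0.169 and 1.00), and their mean levels differed by at most 0.10 on the log2 scale. Of the members tested, Fgfr1 ranked highest by this measure, at rank 3387, with r = 0.36 in WT mice and 0.09 in mutants. Without the 2 mice of each genotype farthest from the median of Fgf10, its r was -0.32 and -0.97.

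Among the ligands of the list that are not members, Fgf5, Fgf7 and Fgf16 were tested. None passed the threshold in edgeR or DESeq2 or had an unadjusted p under 0.05 in edgeR. Fgf5 had 8.23 ± 1.47 CPM in WT mice and 7.73 ± 0.716 CPM in the mice labelled LPAR2-/- (log2 fold change -0.09, SE 0.103, edgeR adjusted p = 0.653). Fgf7, a ligand of the same subfamily as Fgf10, had 1.31 ± 0.272 and 1.41 ± 0.351 CPM (0.10, SE 0.183, adjusted p = 0.791). Fgf16, of the same subfamily as Fgf9, had 0.593 ± 0.173 and 0.651 ± 0.0982 CPM (0.14, SE 0.202, adjusted p = 0.730). Fgf3, Fgf4, Fgf6, Fgf8, Fgf15, Fgf17, Fgf20, Fgf21 and Fgf23 were not tested and reached at most 17 reads in a mouse. Fgf6 had 0 reads in all 14 mice.

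The homologous factors Fgf11, Fgf12, Fgf13 and Fgf14 stay inside the cell and act on sodium channels. All 4 were tested and 0 passed the threshold in edgeR or DESeq2, nor did any have an unadjusted p under 0.05. Fgf13, the most counted, had 329 ± 25.7 CPM in WT mice and 343 ± 28.6 CPM in the mice labelled LPAR2-/- (log2 fold change 0.06, SE 0.0585, edgeR adjusted p = 0.593). Fgf11 had the widest difference, with 33.3 ± 6.15 and 28.2 ± 3.98 CPM (-0.24, SE 0.120, edgeR adjusted p = 0.246). Fgf12 (0.01) and Fgf14 (0.03) were close to 0.

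None of the other receptors and coreceptors tested passed the threshold in edgeR or DESeq2, nor had any an unadjusted p under 0.05 in edgeR. The log2 fold changes were 0.05 for Fgfrl1 (SE 0.0916, adjusted p = 0.813), which lacks the kinase domain, 0.12 for Kl (SE 0.0859, adjusted p = 0.444) and -0.13 for Klb (SE 0.200, adjusted p = 0.746). Kl and Klb encode the klotho coreceptors of the hormonal FGFs. Fgfr4 was not tested, with 0 to 4 reads in WT mice and 1 to 8 in the mutants.

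In the list of feedback inhibitors and FGF-induced factors, 15 of 16 genes were tested. Of these, 3 fell in the mice labelled LPAR2-/- (Spry4, Spred1 and Etv5), which is 20% beside 3.46% of all genes, and 0 rose. The log2 fold change was below 0 for 11 of the 15, and its median was -0.12 beside 0.00292 over all genes tested. An unadjusted p under 0.05 was found for 8 of the 15 (53.3%), beside 22.4% of all genes tested. This list and the other pathway lists were chosen with earlier results of these data known, so nothing is read from these shares or the median. Markers of oligodendrocyte precursors lay lower too, with 6 markers that summed to a median of 228 CPM in WT mice (203 to 248) and of 195 CPM in the mice labelled LPAR2-/- (170 to 242), 1 of 6 called (Gpr17, lower) and none at 0 in every mouse. Mutant mouse 3 was the highest mutant in this sum, Spry4, Spred1, Etv5, Dusp6 and Etv1, and mutant mouse 6 the lowest in this sum, Spry4 and Dusp6. Spred1 was at 128 CPM in mutant mouse 6 and lowest in mouse 2 (114 CPM). Etv5 was lowest in mutant mouse 7 (24.1 CPM) and Etv1 in mouse 2 (13.9 CPM). The part of these cells in the differences was not tested.

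Spry4, a Sprouty inhibitor of receptor signaling, ranged from 14.4 CPM through a median of 15.7 to 18.8 CPM in WT mice and from 9.49 through 12.7 to 14.9 CPM in the mice labelled LPAR2-/-. The groups overlapped by 1 mutant (mouse 3), and the other 6 were below all WT mice. The log2 fold change was -0.36 (SE 0.0849, edgeR adjusted p = 0.0203). Spred1, an inhibitor that blocks Ras activation of Raf, ranged from 130 through 156 to 164 CPM and from 115 through 119 to 134 CPM. Of the mutants, 5 were below the lowest WT mouse (log2 fold change -0.28, SE 0.0583, edgeR adjusted p = 0.0112). Etv5, an ETS transcription factor induced by ERK signaling, ranged from 31.2 through 32.4 to 37.9 CPM and from 24.1 through 27.4 to 32.1 CPM, and 6 of 7 mutants were below all WT mice (-0.27, SE 0.0646, edgeR adjusted p = 0.0216).

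Other genes of the list did not pass the threshold. Etv1 had a log2 fold change of -0.42 (SE 0.151, edgeR adjusted p = 0.116) and Dusp6, the phosphatase of ERK, of -0.32 (SE 0.123, adjusted p = 0.141). Dusp6 ranged from 24.6 through 32.2 to 39.6 CPM in WT mice and from 19.6 through 27.9 to 34.1 CPM in the mice labelled LPAR2-/-, with 3 mutants below the lowest WT mouse. Spred2 (-0.14, adjusted p = 0.172), Spred3 (-0.17, adjusted p = 0.161) and Il17rd (0.15, adjusted p = 0.169) also had an unadjusted p under 0.05 without passing.

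In the relay from receptor to ERK, all 18 genes were tested and 1 passed the threshold, which is 5.56% beside 6.77% of all genes. Mapk3, which encodes the kinase ERK1, rose in the mice labelled LPAR2-/-. It ranged from 223 CPM through a median of 248 to 260 CPM in WT mice and from 264 through 305 to 324 CPM in the mutants, with no overlap (log2 fold change 0.29, SE 0.0572, edgeR adjusted p = 0.00731). The 6 cortex markers had a median sum of 329 CPM in WT mice (312 to 369) and of 374 CPM in the mutants (342 to 412). Mutant mice 1, 2, 6 and 7, with the most Mapk3, had cortex sums of 374 to 412 CPM and CA2 sums of 382 to 422 CPM. Mice 3, 4 and 5 had 342 to 350 and 327 to 358 CPM. WT mouse 1, by contrast, had the lowest cortex sum (312 CPM) at 253 CPM of Mapk3. The part of these regions in the difference was not tested. Frs2, the adaptor at the receptor, was at 60.8 ± 4.63 and 62.0 ± 3.14 CPM (0.03, SE 0.0498, adjusted p = 0.791). Shc1 (0.29, SE 0.119, adjusted p = 0.155) and Plcg1 (-0.14, SE 0.0565, adjusted p = 0.142) did not pass.

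**Figure D2:**
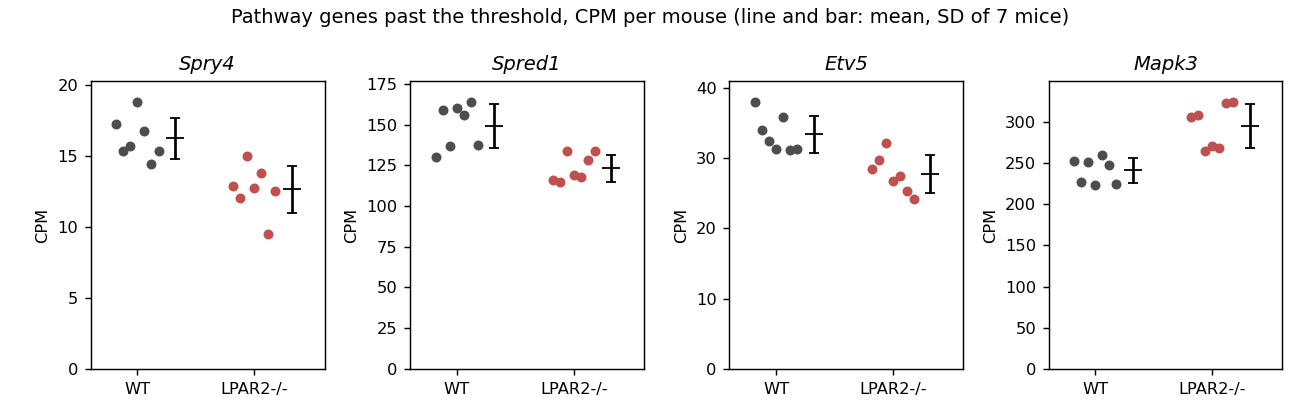
CPM (vertical axes from 0) of Spry4, Spred1, Etv5 and Mapk3 in 7 WT mice (grey) and 7 mice labelled LPAR2-/- (red), 1 point per mouse, with mean and SD. Mapk3 separates upward without overlap, and the other genes lie lower in the mutants with 1 or 2 mice in the WT range.

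Heparan sulfate and the FGF carriers showed no call. Of 27 genes 26 were tested, 0 passed the threshold in edgeR, beside 6.77% of all genes, and 1 (Ext2, a polymerase of heparan sulfate) had an unadjusted p under 0.05, which is 3.85% beside 22.4% of all genes (log2 fold change 0.10, SE 0.0377, adjusted p = 0.114). The carrier Fgfbp1, which releases FGFs from the matrix, did not pass the filter on low counts. It had 1 to 5 reads in 6 WT mice and 23 in WT mouse 4, and 6 to 12 reads in 4 mice labelled LPAR2-/- and 74, 55 and 32 in mutant mice 4, 5 and 6. These are the mice with the highest meningeal sums (380 CPM in WT mouse 4, and 454, 510 and 403 CPM in mutant mice 4, 5 and 6), whose part in the difference was not tested. DESeq2, run without that filter, called Fgfbp1 higher, and edgeR without it did not. Sulf1, which removes sulfate groups from heparan sulfate, had the largest log2 fold change of the 26 genes tested (0.49, SE 0.279, adjusted p = 0.327).

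Over the 81 pathway genes beyond the members, 69 were tested, 1 was higher and 3 were lower in the mice labelled LPAR2-/-, which is 5.80% beside 6.77% of all genes. The median log2 fold change was 0.00522, close to that of all genes. These 4 calls were present under all 23 alternatives of processing.

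**Figure D3:**
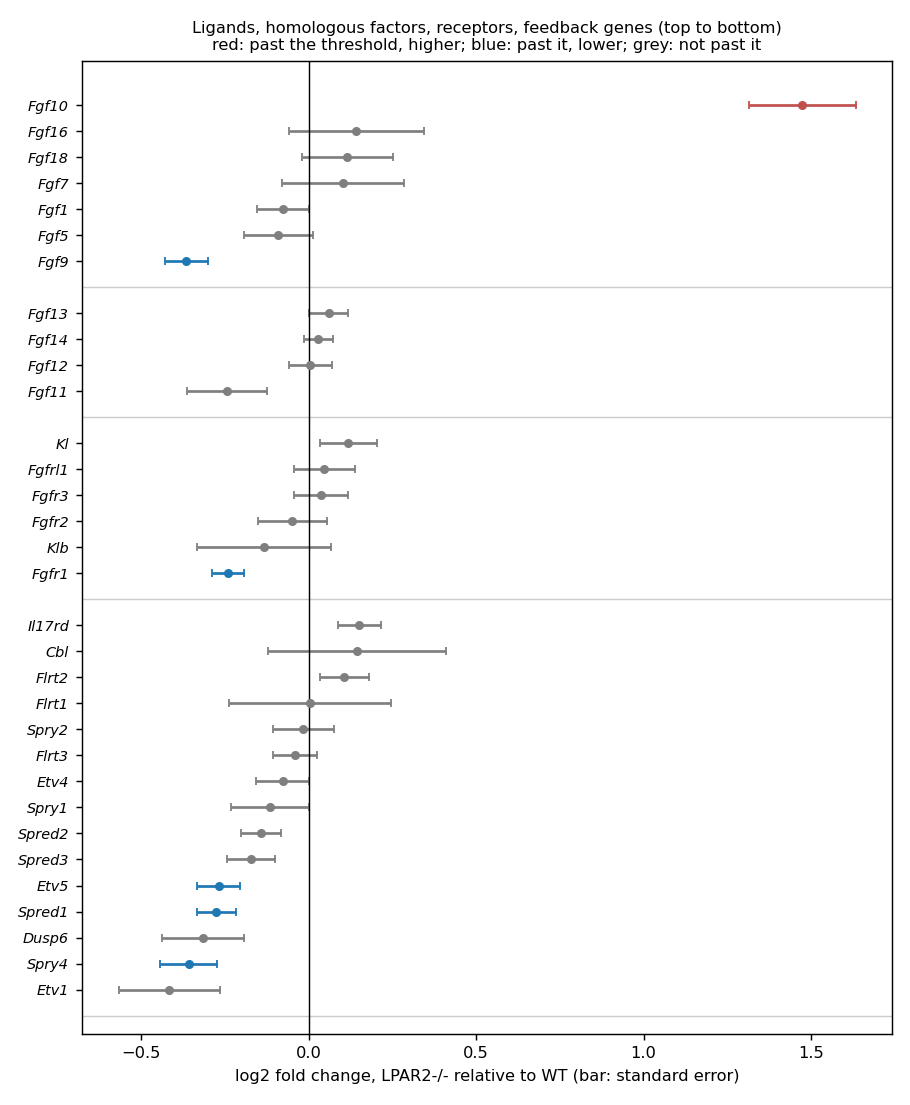
Log2 fold change of the mice labelled LPAR2-/- relative to WT (horizontal axis, bar: SE) for the tested ligands, homologous factors, receptors with coreceptors and feedback genes, in blocks from top to bottom. Fgf10 stands at 1.47, and every other gene of these lists lies between -0.42 and 0.15.

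Because the colonies were bred apart, the genes around Fgf10 on chromosome 13 were read too. Of 19 tested genes that start within 5 Mb of it, 1 was called, which is 5.26% beside 6.77% of all genes. This gene, 3110070M22Rik (chr13:119487257-119488384, minus strand, 773 kb from the start of Fgf10), ranged from 0.117 CPM through a median of 0.592 to 1.09 CPM in WT mice and from 1.02 through 1.68 to 1.85 CPM in the mice labelled LPAR2-/-. The groups overlapped by 1 mutant, mouse 7 (log2 fold change 1.37, SE 0.311, edgeR adjusted p = 0.0165). Its values rest on 2 to 39 reads, and it lost its place among the tested genes when at least 10 reads were asked of every library. The nearest tested genes, Mrps30 (335 kb before Fgf10; 0.19, SE 0.0781, adjusted p = 0.151) and Nnt (620 kb after it; -0.18, SE 0.118, adjusted p = 0.385), did not pass. Within 10 Mb, 34 genes were tested and 3 passed.

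The neighbours Gm7120 and Ccl28 were singled out after their values were seen. The 5′ ends of Gm7120 and 3110070M22Rik overlap on opposite strands, and reads were assigned by strand. It ranged from 1.40 CPM through a median of 13.95 to 29.3 CPM in WT mice and from 20.8 through 27.2 to 37.1 CPM in the mice labelled LPAR2-/-. WT mice 1 and 2 lay within the mutant range and the other 5 below it (log2 fold change 0.94, SE 0.416, edgeR adjusted p = 0.201). Ccl28, a chemokine of mucosal tissues, ranged from 1.05 through 4.01 to 9.29 CPM and from 6.72 through 8.72 to 14.3 CPM, and the same 2 WT mice lay in the mutant range (1.09, SE 0.395, edgeR adjusted p = 0.119). In Fgf10, WT mouse 1 was the highest WT mouse (20.1 CPM) and WT mouse 2 was among the lowest (15.6 CPM). In mutant mice 2 and 3, with the most Fgf10, Ccl28 was also highest (13.7 and 14.3 CPM), whereas Gm7120 was highest in mouse 6.

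**Figure D4:**
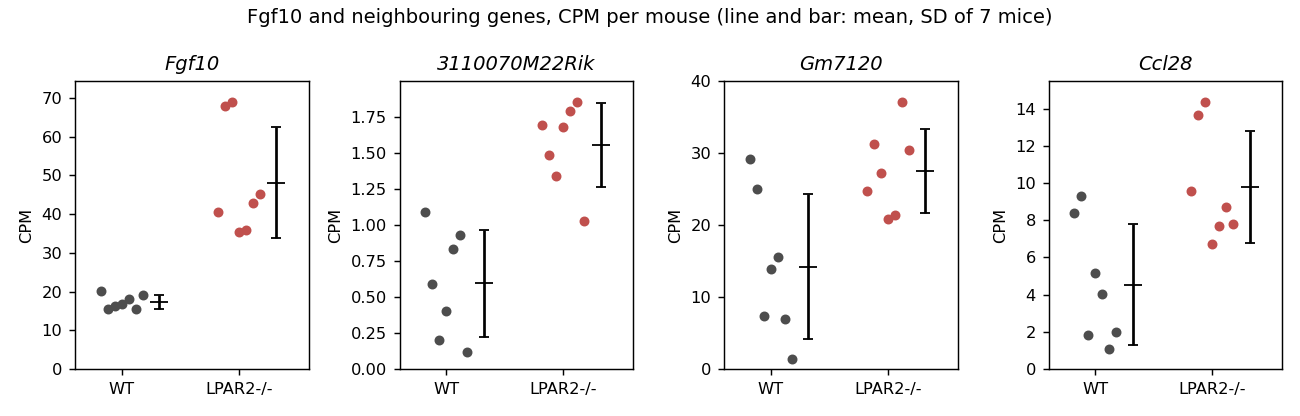
CPM (vertical axes from 0) of Fgf10 and 3 neighbouring genes of chromosome 13 in 7 WT mice (grey) and 7 mice labelled LPAR2-/- (red), 1 point per mouse, with mean and SD. WT mice are close together in Fgf10 (15.5 to 20.1 CPM) and spread in Gm7120 (1.40 to 29.3 CPM) and Ccl28 (1.05 to 9.29 CPM).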

How the data were processed

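The authors removed ribosomal RNA from total RNA of 14 mice (tissue labelled hippocampus) and sequenced the rest. They trimmed reads (cutadapt 1.18), mapped them with STAR on mm10, and deposited counts of reverse-strand exonic reads per gene made by featureCounts 1.6.3. A second table deposited by the authors, whose values are another unit (counts divided by DESeq2 1.22.2 size factors and gene length), served as an alternative. Its displaced decimal marks were restored, after which 99.976% of values lay within 1% of scaled counts. Its log2 columns were not used.

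All 7 WT mice and 7 mice labelled LPAR2-/- were compared without covariates. Of 24421 genes, 14897 passed filterByExpr in edgeR 4.0.16 (R 4.3.3) and were tested with TMM normalization and the robust quasi-likelihood F test, at a Benjamini-Hochberg adjusted p under 0.05 over all genes. CPM are reads relative to the TMM-scaled library size, and log2 CPM carry a prior count of 2. Nothing states that mice came from separate litters. The p-values set the group difference against the spread between these mice within a genotype, and do not cover differences between colonies or litters. The floor of 3 reads for a count of 0 covers counting error only. In counts simulated for this comparison (14897 genes, 7 against 7, 100 genes changed by each fold), 98% of genes changed 2.8-fold and 37% of those changed 1.25-fold were recovered. Of the simulated calls, 3.57% fell on unchanged genes. The simulation changed fewer genes than the 1009 called in the data, so its rates need not hold there. Alternatives used DESeq2 1.42.0 and limma 3.58.1 (pseudocounts 1 and 0.06), other scalings and filters, and each mouse left out.

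Members and lists were chosen with earlier results of these data known. Named were all 9 members, other FGF ligands and receptors, pathway genes past the threshold, the 5 genes most like Fgf10 (by the lower of the 2 correlations within a genotype) and neighbours past the threshold. Fgfbp1, the pathway genes named without passing, Mrps30, Nnt, Gm7120 and Ccl28 were added after their values were seen.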

Additional observations from a re-analysis of the deposited data

Results flagged for a closer look

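Single mice lay far from the rest of their group in several genes, most of them with few reads. Among the ligands, Fgf22 was 0.350 CPM in WT mouse 7 against at most 0.228 CPM in the other 6. Fgf3 was 0.130 CPM in mutant mouse 3 (next 0.0513 CPM), Fgf4 was 0.050 CPM in WT mouse 4 and Fgf20 was 0.0431 CPM in mutant mouse 4, with 0 reads of Fgf4 and Fgf20 in the other mice of those groups. The carrier Fgfbp1 was 1.15 CPM in WT mouse 4 (next 0.254 CPM). In 3 genes with more reads, Etv1 was 38.0 CPM in WT mouse 2 (next 26.0 CPM), Il17rd was 12.0 CPM in WT mouse 1, below 14.95 CPM or more in the other 6, and Frs2 was 68.5 CPM in mutant mouse 3 (next 63.1 CPM). These are 8 values out of 107 groups examined by Dixon's criterion, and for normally distributed values chance alone gives about 1 in 20. That rate does not hold for so few reads, since 1 read in 1 mouse and 0 in the others (Fgf4 and Fgf20) is always flagged. The values of Fgf3, Fgf4, Fgf20 and Fgf22 rest on 1 to 6 reads.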

How the results depend on the processing

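The calls of Spry4, Spred1, Etv5 and Mapk3 were kept under each of 23 alternatives, of which leaving out mutant mice 2 and 3 together was chosen after seeing the data. As a description, the log2 fold change of Fgf10 ran from 1.20 to 1.54, that of Fgf9 from -0.39 to -0.29 and that of Fgfr1 from -0.26 to -0.22. The adjusted p of Etv5 reached 0.0498 without 1 mouse. Leaving out single mice gave 567 to 1385 genes called (275 to 660 higher and 292 to 725 lower) in place of 1009, and the total fell by over 1.5 times without WT mouse 2 (567), 4 (669), 5 (596) or 6 (654) or mutant mouse 1 (611). It gave 1 or 2 called genes near Fgf10, with Nnt added without WT mouse 1 (adjusted p = 0.0467). Of the genes not called, Plcg1 passed without WT mouse 1 (adjusted p = 0.0273), Spred3 without mutant mouse 3 (0.0496) and Shc1 without mutant mice 2 and 3 (0.0364). The log2 fold changes of genes near 0 changed sign when single mice were left out, from -0.0230 to 0.0374 for Fgf12, from -0.00142 to 0.0796 for the member Fgfr3, from -7.94e-05 to 0.11 for Fgfrl1, from -0.00610 to 0.0441 for Frs2 and from -0.0218 to 0.0375 for Atp6v1e1.

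Mouse numbers did not pair the mice (correlations of same-numbered mice from -0.33 to 0.31, 3 of 7 over 0.1). With mouse number as a replicate block, 586 genes were called (314 higher and 272 lower). Without mutant mice 2 and 3, 3 other pathway genes were higher (Fgfbp1 and Shc1 added) and 2 genes near Fgf10 were called (Parp8 added). DESeq2 called 2 other pathway genes higher (Fgfbp1 added) and 2 genes near Fgf10 (Fst added). Asking for 10 reads in every library left 0 called near Fgf10, because 3110070M22Rik was no longer tested, and a window of 10 Mb gave 3. Both limma fits added the member Fgf22, which had a higher mean in the mutants and 3 to 9 reads per mouse. Without mutant mice 2 and 3, the log2 fold change was -0.00586 for Fgf12, -0.0198 for Tusc2 and -0.0478 for Atp6v1e1. That of Atp6v1e1 was -0.000427 with DESeq2 size factors, -0.00204 with DESeq2 and -0.000493 in both limma fits. The causes were not tested.

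Correlations with Fgf10 changed sign without the 2 mice farthest from its median, to 0.0762 for Fgf1, -0.60 for Fgf22 and -0.32 for Fgfr1 in WT mice, and to 0.28 for Fgf18, -0.97 for Fgfr1 and -0.70 for Fgfr2 in mutants. Spearman's rho in mutants was -0.39 for Fgfr1 and -0.11 for Fgfr2, and r of Fgf22 with DESeq2 size factors was 0.0172. Few reads limit the values of Fgf2, Fgf22 and 3110070M22Rik and of the ligands that were not tested.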
